A study of Mus musculus with 622 samples.

Results

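The 10 genes described here build the adhesion and polarity machinery of the early mouse embryo: Cdh1, Ctnnb1 and Ctnna1 of the adherens junction, Pard3, Pard6b, Prkcz and Prkci of the Par complex, Ezr and Myo10 of the cell surface, and Tjp1 of the tight junction. They were chosen by symbol, and all 10 were found in each of the 8 tables of expected counts, among 23845 gene symbols. Levels are given as CPM, the usual scaling of counts to the library total, in 525 single embryos of the 622 samples in the series. Zygotes had been injected with a synthetic copy of 1 of 2 microRNAs, miR-200c-3p and miR-465c-3p, and the study sequenced the polyadenylated RNA of whole embryos by SMART-Seq. Embryos were made from oocytes of superovulated FVB/NJ females of 5 to 7 weeks. They were either parthenotes, which are oocytes activated without sperm in strontium chloride with EGTA and cytochalasin B, or products of in vitro fertilization with sperm of FVB/NJ males of 8 to 12 weeks.

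In the first parthenote series (miR-200c), 26 low-dose, 23 mid-dose and 28 control embryos were collected as late 2-cell embryos at 28 hours. That series also held 23 low-dose, 22 mid-dose, 24 high-dose and 24 control embryos at the 4-cell stage (46 hours), and 24, 19, 19 and 20 of these groups at the compacted morula stage (70 hours). The second parthenote series (miR-465c) held 21 injected and 22 control embryos at the 2-cell stage, 24 low-dose, 16 high-dose and 23 control embryos at the 4-cell stage, and 29, 28 and 22 of these groups at the morula stage. The fertilized series (miR-200c, dose not stated) held 21 injected and 21 control embryos at the 4-cell stage and 23 injected and 23 control embryos at the morula stage. Controls had received GFP. The low dose was about 200 molecules per zygote, and the mid and high amounts are not stated in the labels. Oocytes of about 5 females were pooled for each of 3 replicate collections (2 in 1 experiment), and the collection of each embryo is not labelled. The p-values therefore measure the spread between embryos, some of which share a collection. In a whole embryo, fewer cells that express a gene and less of its RNA per cell cannot be told apart.

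Compaction is the flattening of loosely joined blastomeres against one another, and it is known to depend on E-cadherin, which binds between cells and is tied to the actin cortex through beta-catenin and alpha-catenin. At the same time the cell surface that faces outwards gains an apical domain, marked by the Par complex and by ezrin, while junctions form on the inner faces. Much of the protein of these complexes is known to be present from the oocyte, so that transcript levels alone do not give the amount of protein.

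Among the 10 genes, only Pard6b holds a match to the seed (bases 2 to 8) of either microRNA in its RefSeq 3′ UTR, so the microRNAs and the matching sites are shown first. Capitals mark the seed in the microRNA and its 7-base match in the site, and all coordinates are on GRCm38.p6.
mmu-miR-200c-3p (chr6:124718324-124718346, minus strand): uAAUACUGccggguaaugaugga
Pard6b site for miR-200c (chr2:168101067-168101095, plus strand): ctattaaatgtCAGTATTttactacaatt
mmu-miR-465c-3p (chrX:66825965-66825986, minus strand): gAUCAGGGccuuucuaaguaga
Pard6b site for miR-465c (chr2:168099279-168099307, plus strand): ggacctgcaggCCCTGATgttccacaaca
The miR-200c match starts at base 1868 and the miR-465c match at base 80 of a Pard6b 3′ UTR of 1993 bases. Among 2722 genes with 3′ UTRs of like length (at least 80% of it, and at most longer by the same factor), 20.8% held a miR-200c match and 9.9% a miR-465c match, against 12.3% and 7.1% of all 19536 genes with a RefSeq 3′ UTR. A match describes the sequence and is not evidence of binding. The 3′ UTRs of the other 9 genes ran from 883 bases in Ctnna1 to 2463 bases in Prkci.

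Totals of expected counts ran from 404357 to 6774824 per embryo, with a median of 3118638, and the number of genes with a count ran from 6871 to 13081. A count of 3 was worth between 0.443 and 7.42 CPM, depending on the embryo, which is the level below which a gene listed at 0 may simply have been missed; this limit covers counting error only, since the libraries carry no molecular identifiers. No pair of embryos of a group had equal counts. Medians of stage markers followed the labels: in first-series controls, 5 markers of the 2-cell stage summed to medians of 1862, 73.5 and 0.999 CPM at the 2-cell, 4-cell and morula stages. Over the same stages 5 markers of morulae and outer cells (Cdx2, Krt8, Krt18, Nanog, Gata3) summed to medians of 16.4, 145 and 3540 CPM. Single embryos overlapped: a 4-cell control held 2384 CPM of the 2-cell markers, against a lowest 2-cell control of 1100 CPM. The lowest morula control held 158 CPM of the morula markers, against up to 306 CPM in 4-cell controls. Among injected first-series embryos, 2-cell markers reached 7163 CPM in a high-dose 4-cell embryo and fell to 6.65 CPM in a mid-dose 2-cell embryo. Of 10 cumulus cell markers, only Fshr was at 0 in all 8 control groups, and the list summed to at most 34.3 CPM in any control embryo. In first-series 2-cell controls 3 of the 10 had a mean of at least 1 CPM. The list summed to medians of 5.34, 0 and 1.81 CPM at the 2-cell, 4-cell and morula stages of that series. By correlation with the median profile of the controls of each stage, 9 of 525 embryos, all labelled 4-cell, lay closer to the 2-cell median. Of these, 2 were among the 183 controls, and 1, a mid-dose embryo of the first series, stood far from its label (r = 0.774 with 2-cell, against -0.378 with 4-cell). Results that rest on these embryos are given with and without them.

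E-cadherin, alpha-catenin and beta-catenin transcripts all rose between the 4-cell and morula stages in the controls of all 3 series. In both parthenote series E-cadherin and alpha-catenin had also risen between the 2-cell and 4-cell stages, while the beta-catenin difference at that step did not pass the test. These calls are not the same under every scaling or fit, as given below for each gene. Cdh1, which encodes E-cadherin, the calcium-dependent adhesion receptor of the blastomere, had lowest, median and highest levels of 2.02, 61.8 and 136 CPM in 28 2-cell controls of the first parthenote series. These were 0.604, 109 and 290 CPM in 24 4-cell controls and 103, 364 and 487 CPM in 20 morula controls. The stages overlapped at each step, but 13 of 20 morulae lay above every 4-cell embryo. Fitted log2 fold changes were 0.98 (SE 0.34) for 4-cell over 2-cell and 1.66 (SE 0.37) for morula over 4-cell, with adjusted p of 0.0064 and 4.55e-05 (edgeR's quasi-likelihood test, Benjamini-Hochberg over all 13027 genes tested, called where adjusted p is under 0.05).

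Ctnna1, alpha-catenin, the link between the cadherin complex and actin, had 24.2, 105 and 252 CPM as the lowest, median and highest level in first-series 2-cell controls. Its values were 88.0, 155 and 323 CPM at the 4-cell stage and 162, 388 and 477 CPM at the morula stage, where 17 of 20 embryos lay above every 4-cell embryo. It rose by a log2 of 0.81 (SE 0.17, adjusted p = 7.83e-06) and then of 1.32 (SE 0.18, adjusted p = 1.46e-10). Ctnnb1, beta-catenin, which binds the E-cadherin tail and also carries Wnt signals, had 21.9, 140 and 327 CPM in 2-cell controls, 9.03, 106 and 229 CPM in 4-cell controls and 52.4, 198 and 346 CPM in morula controls. The 4-cell and 2-cell embryos overlapped almost completely, with a log2 difference of -0.34 (95% interval -0.81 to 0.12, adjusted p = 0.188). With DESeq2's size factors (RLE) in place of TMM it was a called fall (log2 -0.74, adjusted p = 0.00421), and likewise with DESeq2 itself (-0.74, adjusted p = 0.00237). At the morula stage Ctnnb1 rose by 1.04 (SE 0.26, adjusted p = 0.000236), and 7 of 20 morulae lay above every 4-cell embryo. In the annotation, Ctnnb1, Ctnna1, Myo10, Pard3 and Prkci each overlap at least 1 other gene, and how reads there were shared out is not given in the sources used here.

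In the second parthenote series Cdh1 had 0, 78.8 and 214 CPM in 23 4-cell controls, against 0, 41.1 and 203 CPM in 22 2-cell controls, a rise of 1.00 (SE 0.36, adjusted p = 0.0115) between groups that overlapped almost fully. Its morulae had 11.1, 180 and 411 CPM, 1.00 (SE 0.36, adjusted p = 0.0127) above the 4-cell controls. Ctnna1 rose by 0.68 (SE 0.18) and 0.82 (SE 0.18) at the same steps, with adjusted p of 0.00049 and 3.33e-05. Ctnnb1 differed by 0.34 (SE 0.25, adjusted p = 0.235) at the first step and rose by 0.77 (SE 0.25, adjusted p = 0.00601) at the second. With the second series fitted alone, the morula values of Cdh1 and Ctnnb1 no longer passed the test (0.94, adjusted p = 0.061, and 0.70, adjusted p = 0.0629). In fertilized embryos, where the 2-cell stage was not sampled, all 3 genes rose at the morula stage: Cdh1 by 1.95 (SE 0.38, adjusted p = 3.79e-06), Ctnnb1 by 1.34 (SE 0.26, adjusted p = 4.09e-06) and Ctnna1 by 1.47 (SE 0.19, adjusted p = 5.49e-12). There, 20 of 23 morulae exceeded every 4-cell embryo for Cdh1, 20 of 23 for Ctnnb1 and 22 of 23 for Ctnna1. The 4-cell rises of Cdh1 and Ctnna1 depend on scaling: with RLE, which moved the median of all genes by -0.43 at this step in the first series and -0.29 in the second, they had adjusted p of 0.145 and 0.0517 in the first series and 0.0584 and 0.183 in the second. The second-series 4-cell rise of Cdh1 was 0.76 (adjusted p = 0.0581) without 1 control embryo, 4-cell replicate 23, and 0.83 (adjusted p = 0.0886) with the series fitted alone.

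**Figure D1:**
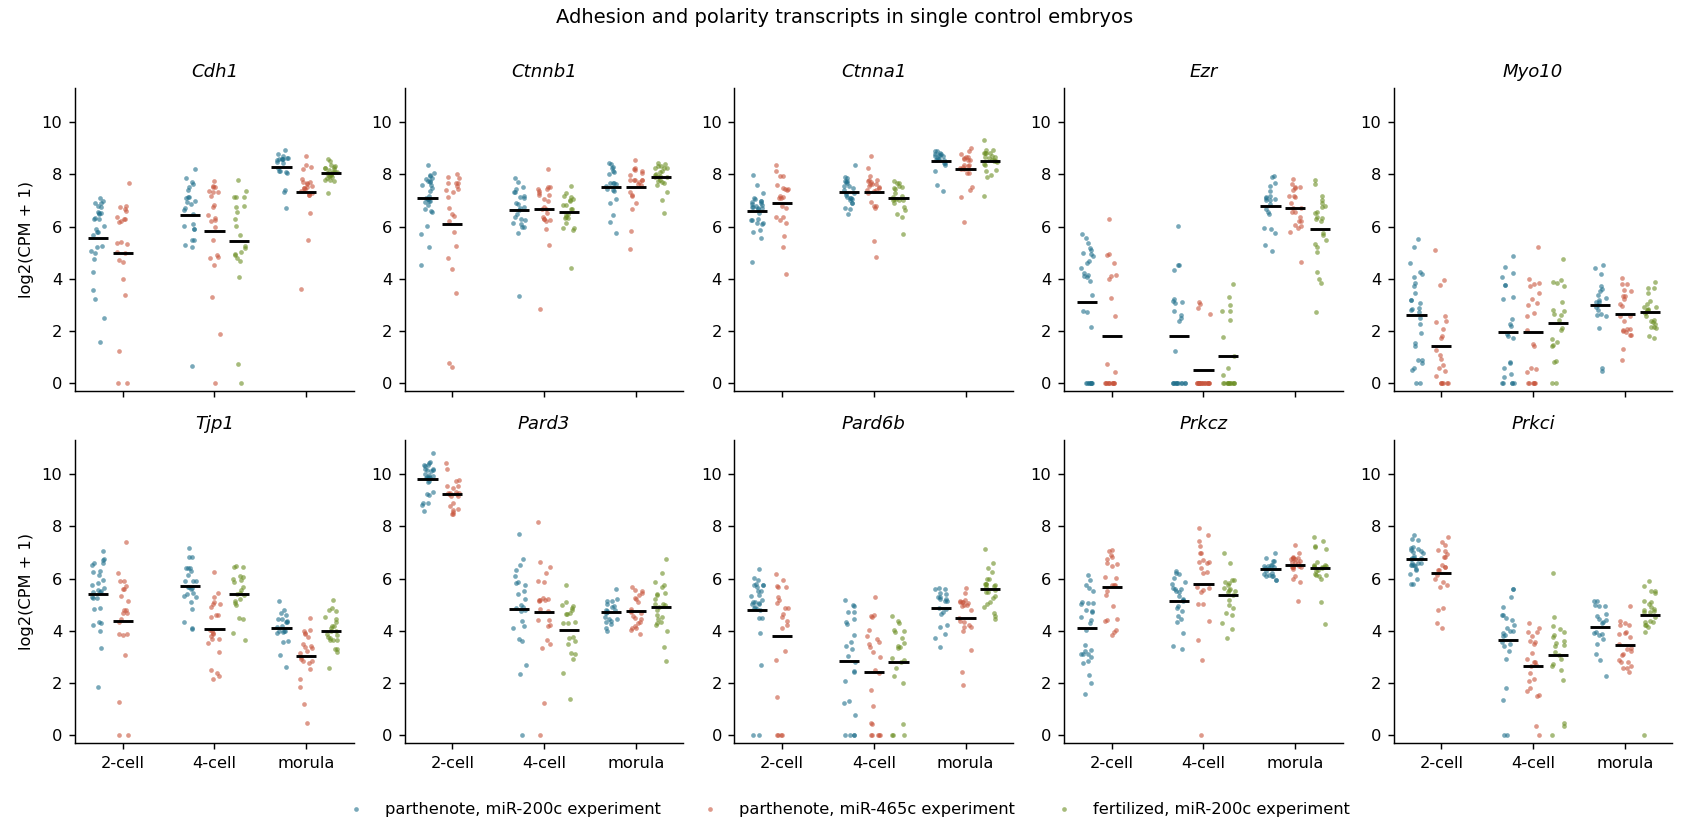
Level of each of the 10 genes in every control embryo, on a log2(CPM + 1) axis, by stage (2-cell, 4-cell, morula) and series, with 1 point per embryo and a bar at the mean of the plotted values. Pard3 drops between the 2-cell and 4-cell stages without overlap in both parthenote series, Ezr has no count in many 4-cell embryos and is high in morulae, and Cdh1 and Ctnna1 climb.

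Of the Par complex, Pard3 and Prkci fell steeply between the 2-cell and 4-cell stages, Pard6b fell and came back, and Prkcz climbed in the first series. Pard3 encodes the scaffold that gathers the complex at cell junctions. Its lowest, median and highest levels in the first series were 387, 953 and 1780 CPM in 2-cell controls, 0, 29.9 and 208 CPM in 4-cell controls and 14.8, 25.9 and 47.3 CPM in morulae. All 24 4-cell embryos lay below every 2-cell embryo. The log2 fold change was -4.41 (SE 0.31, adjusted p = 1.55e-29) for 4-cell over 2-cell and -0.52 (SE 0.29, 95% interval -1.09 to 0.05, adjusted p = 0.123) for morula over 4-cell. In the second series all 23 4-cell controls, at 0, 34.2 and 288 CPM, likewise lay below the 22 2-cell controls, at 352, 613 and 1393 CPM (log2 fold change -3.51, SE 0.31, adjusted p = 1.84e-21).

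Second-series morulae had 13.9, 25.03 and 49.7 CPM of Pard3, a small fall of 0.64 (SE 0.29, adjusted p = 0.0497) that rests on 1 4-cell control, replicate 22. That embryo held the 288 CPM and also the highest summed level of 5 oocyte-stored markers in its group, 851 CPM, but it was not among those that lay closer to another stage. Without this embryo the difference was -0.27 (adjusted p = 0.41). In fertilized embryos the direction was the other one: Pard3 had 6.28, 30.5 and 108 CPM in 23 morulae, against 1.61, 18.99 and 52.6 CPM in 21 4-cell embryos, a rise of 0.91 (SE 0.29, adjusted p = 0.0057).

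Prkci encodes the iota form of atypical protein kinase C, the kinase of the complex. In the first series it had 54.3, 108 and 200.3 CPM at the 2-cell stage, 0, 14.7 and 47.5 CPM at the 4-cell stage and 3.88, 18.9 and 34.8 CPM at the morula stage. All 24 4-cell controls lay below every 2-cell control (log2 fold change -2.64, SE 0.32, adjusted p = 4.28e-13), and morulae differed from them by 0.38 (95% interval -0.26 to 1.02, adjusted p = 0.325). In the second series 22 of 23 4-cell controls lay below every 2-cell control (-3.21, SE 0.35, adjusted p = 1.14e-15). The second-series morula difference was 0.63 (SE 0.33, adjusted p = 0.0904), 0.83 (adjusted p = 0.0254) with RLE and 0.70 (adjusted p = 0.049) over embryos with at least 1500000 counts. Prkci rose in fertilized morulae by 1.31 (SE 0.34, adjusted p = 0.000421), with 0, 25.95 and 59.6 CPM in morulae, against 0, 9.71 and 73.7 CPM in 4-cell embryos.

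Prkcz, the zeta form of the kinase, went the other way. In the first series it had 2.02, 19.6 and 69.7 CPM at the 2-cell stage, 9.03, 37.8 and 78.4 CPM at the 4-cell stage and 60.3, 84.1 and 125.1 CPM at the morula stage. Its rises were 0.98 (SE 0.25, adjusted p = 0.000326) and 1.23 (SE 0.27, adjusted p = 5.38e-05), and 11 of 20 morulae exceeded every 4-cell embryo. The second series already had 13.3, 53.7 and 135 CPM of Prkcz in 2-cell controls, followed by 0, 75.0 and 244 CPM in 4-cell controls and 34.7, 97.7 and 156 CPM in morulae. Its first step was a rise of 0.73 (SE 0.27, adjusted p = 0.0128), which had an adjusted p of 0.239 with RLE, 0.0625 with the replicate number as a block and 0.0993 with the series fitted alone, and its second was 0.19 (95% interval -0.34 to 0.71, adjusted p = 0.571). Fertilized morulae stood 1.08 (SE 0.28, adjusted p = 0.000448) above 4-cell embryos.

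Pard6b, the adaptor that joins the kinase to Cdc42 and the scaffold, fell at the 4-cell stage and rose again at the morula stage in both parthenote series. In the first it had 0, 33.8 and 81.1 CPM at the 2-cell stage, 0, 8.12 and 35.6 CPM at the 4-cell stage and 9.36, 34.4 and 49.6 CPM at the morula stage. Groups overlapped, with 9 of 20 morulae above every 4-cell embryo. The changes were -1.53 (SE 0.45, adjusted p = 0.00141) and 1.58 (SE 0.47, adjusted p = 0.00259). In the second series they were -1.19 (SE 0.47, adjusted p = 0.0194) and 1.48 (SE 0.47, adjusted p = 0.00451). In fertilized embryos the morula rise was 2.596 (SE 0.50, adjusted p = 3.16e-06), with 20.8, 50.7 and 139 CPM in morulae, against 0, 9.16 and 22.8 CPM in 4-cell embryos, and 22 of 23 morulae above every 4-cell embryo.

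**Figure D2:**
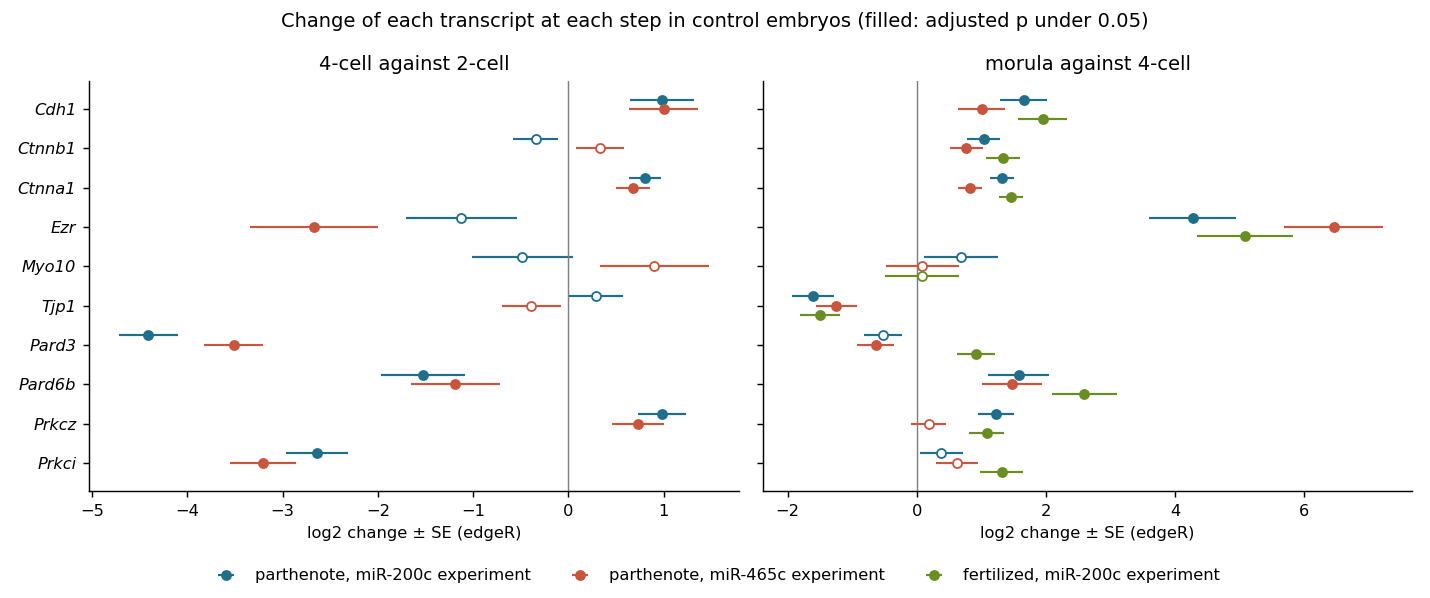
Fitted log2 fold change of each of the 10 genes at each stage step in control embryos (4-cell over 2-cell and morula over 4-cell), with bars of 1 SE on each side and 1 colour per series, filled where adjusted p is under 0.05. Pard3 and Prkci lie far left of 0 at the first step, Ezr lies far right of 0 at the second, and Tjp1 lies left of 0 at the second step in all 3 series.

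Ezr encodes ezrin, which ties the plasma membrane to actin and marks the apical surface of polarized blastomeres. It had no count in many 4-cell libraries: 13 of 24 first-series controls, 4 of 23 second-series controls and 10 of 21 fertilized controls had a count. The lowest, median and highest levels in the first series were 0, 15.9 and 51.8 CPM at the 2-cell stage, 0, 2.79 and 63.1 CPM at the 4-cell stage and 32.3, 128 and 243 CPM at the morula stage. In the first series 15 of 20 morulae lay above every 4-cell embryo, and the morula rise was 4.28 (SE 0.67, adjusted p = 1.4e-08). In the second series the 22 morulae, at 24.3, 104 and 225 CPM, all lay above the 23 4-cell controls, at 0, 0 and 7.69 CPM, with a log2 fold change of 6.46 (SE 0.76, adjusted p = 1.69e-13). Fertilized morulae, at 5.55, 76.3 and 221 CPM, rose by 5.09 (SE 0.74, adjusted p = 1.23e-09) over 4-cell embryos, which had 0, 0 and 12.8 CPM. Since the 4-cell counts are near 0, the size of these fitted changes is loosely determined. The 4-cell fall of Ezr passed the test in the second series (-2.67, SE 0.67, adjusted p = 0.000239) and missed it in the first (-1.12, SE 0.58, adjusted p = 0.0755), where it was -1.62 (adjusted p = 0.0128) with RLE and -1.51 (adjusted p = 0.0372) with the replicate number as a block. Second-series 2-cell controls had 0, 0.178 and 77.9 CPM of Ezr. That median lay below what 3 counts were worth in any embryo of the group (0.66 to 2.13 CPM). The called fall therefore rests on the 2-cell embryos with higher levels.

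Tjp1 encodes ZO-1, the scaffold that gathers tight junction proteins under the membrane, and its transcript fell at the morula stage in all 3 series. In the first series it had 2.601, 45.8 and 131 CPM at the 2-cell stage, 15.7, 50.5 and 145 CPM at the 4-cell stage and 5.21, 16.9 and 34.4 CPM at the morula stage. There, 9 of 20 morulae lay below every 4-cell embryo. The morula changes were -1.60 (SE 0.32, adjusted p = 8.2e-06), -1.24 (SE 0.32, adjusted p = 0.000356) and -1.495 (SE 0.32, adjusted p = 2.06e-05) in the first, second and fertilized series. At the first step Tjp1 differed by 0.29 (95% interval -0.27 to 0.85) in the first series and -0.39 (95% interval -0.99 to 0.21) in the second, and the first-series value was -0.23 (adjusted p = 0.49) with RLE. Over embryos with at least 1500000 counts the second-series value was a called fall (log2 -0.74, adjusted p = 0.0273). Myo10, a motor protein of filopodia, had low counts throughout, with control means of 3.97 to 9.19 CPM over the 8 groups. It passed the test at no step, and its intervals were wide, from -1.53 to 0.56 for 4-cell over 2-cell and -0.44 to 1.81 for morula over 4-cell in the first series.

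Many genes of the whole table changed at these steps, so the counts of members say little by themselves. In the first series 3 of the 10 rose and 3 fell at the 4-cell stage, where 34.3% of all 13027 genes tested were called higher and 35.5% lower. At its morula stage 6 rose and 1 fell, where 25.8% were higher and 29% lower. The second series had 3 rises and 4 falls at the 4-cell stage (31.1% and 35% of all genes), and 5 rises and 2 falls at the morula stage (26.9% and 28.8%). Fertilized morulae had 8 rises and 1 fall, where 28.3% of all genes were higher and 25.3% lower. With RLE in place of TMM, the share of called genes that were higher was 64.6% (4663 genes higher, 2553 lower) in place of 52.7% in fertilized morulae and 38.3% (3497 higher, 5638 lower) in place of 49.1% in first-series 4-cell embryos. No member that passed the test with TMM had another direction with RLE. Both steps of a series share its 4-cell embryos, so a high or low value there moves both changes in opposite directions.

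Per kilobase of transcript, which allows levels of different genes to be compared, the order of the 10 changed in part between the 2-cell and morula stages. In first-series 2-cell controls Pard3 led with 217 ± 75.5 CPM per kb, followed by Ctnnb1 with 44.6 ± 21.1, Ctnna1 with 28.5 ± 12.5, Prkci with 24.9 ± 8.27, Cdh1 with 14.5 ± 8.998, Pard6b with 10.7 ± 5.63 and Tjp1 with 7.69 ± 4.80 CPM per kb (SD, n = 28). Prkcz and Ezr, both at 5.45 CPM per kb, and Myo10, at 1.14 CPM per kb, came last. Only the gaps below Pard3 and below Prkci were wider than the larger SD of the neighbouring genes. In first-series morulae the adherens junction led, with Ctnna1 at 102 ± 22.9, Cdh1 at 74.0 ± 22.5 and Ctnnb1 at 57.7 ± 24.7 CPM per kb (SD, n = 20). Next came Ezr at 40.3 ± 19.8, Prkcz at 19.8 ± 4.07, Pard6b at 9.17 and Pard3 at 5.87 ± 1.77 CPM per kb. Prkci at 4.27, Tjp1 at 2.53 and Myo10 at 1.07 CPM per kb came last. Neighbours closer than the larger SD were Cdh1 and Ctnnb1, Ctnnb1 and Ezr, Pard6b and Pard3, Pard3 and Prkci, and Prkci and Tjp1. Fertilized morulae had the same 3 genes on top, with Ctnna1 at 103 ± 27.8, Ctnnb1 at 69.7 ± 18.3 and Cdh1 at 61.3 ± 11.4 CPM per kb (SD, n = 23).

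**Figure D3:**
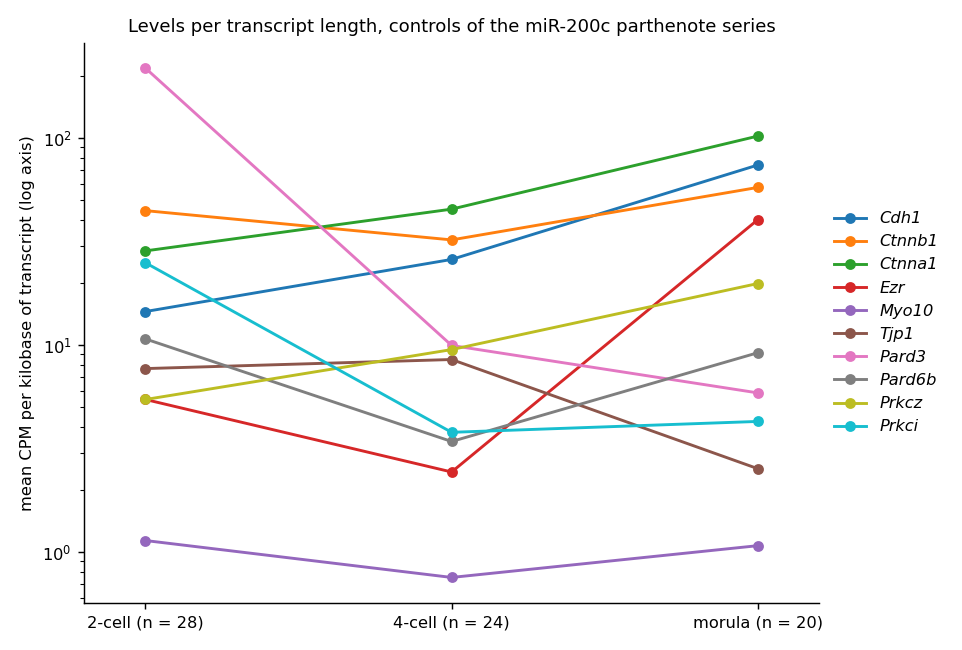
Mean level per kilobase of transcript (CPM per kb, log axis) of the 10 genes in control embryos of the first parthenote series by stage, with 1 line per gene and no error bars (the SDs are in the text). Pard3 stands highest at the 2-cell stage, and Ctnna1, Cdh1 and Ctnnb1 stand highest at the morula stage.

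Whether a stage step differed between series was tested as an interaction in the same fit. Embryo type and injected series are also different experiments, so the type of embryo and the experiment cannot be told apart. Of the 10 genes, 1 differed between the fertilized and first parthenote series at the morula step, where 3.02% of all genes did: Pard3, by 1.43 (SE 0.42, 95% interval 0.62 to 2.25, adjusted p = 0.0317). The log2 changes behind it are 0.91 in fertilized embryos and -0.52 in parthenotes. The call was lost without the 2 control embryos that lay closer to the 2-cell median (1.199, adjusted p = 0.0989), without 1 of them alone, first-series 4-cell replicate 24 (1.24, adjusted p = 0.0782), and with the replicate number as a block (1.102, adjusted p = 0.221). Prkci, with 0.93 (95% interval 0.02 to 1.85, adjusted p = 0.339), and Pard6b, with 1.02 (95% interval -0.29 to 2.32, adjusted p = 0.538), were the next largest positive differences that were not called, and intervals of this width do not show that the series were alike.

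Between the second and first parthenote series none of the 10 was called at the 4-cell step, where 14.6% of all genes were, or at the morula step, where 3.74% were (edgeR). At an unadjusted p under 0.05 there were 1 and 2 of 10. With RLE the split of genes called at the 4-cell step was 1146 higher and 917 lower in the second series, or 55.6% higher in place of 44.4%. The member values nearest to the threshold were Pard3 at the 4-cell step, with 0.90 (SE 0.39, adjusted p = 0.108), and Prkcz and Ezr at the morula step, with -1.04 (SE 0.38, adjusted p = 0.115) and 2.18 (SE 0.89, adjusted p = 0.172). Without the 2 control embryos closer to the 2-cell median, the Pard3 difference at the 4-cell step was 1.14 (adjusted p = 0.0291). All 3 interactions use the controls of the first series.

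Partners of the 10 genes were counted in 4 lists: adherens junction partners (14 of 16 tested), cortex and apical domain (16 of 17), polarity partners (15 of 16), and tight junction and desmosome genes (all 13). At the morula stage of the first series, tight junction and desmosome genes had a median log2 change of 2.27, against -0.04 over all genes, with 10 of 13 risen and 0 fallen. Of all genes 25.8% were higher and 29% lower there. The same list had 10 risen and 1 fallen in the second series (median 1.84, against 0.001 over all genes, of which 26.9% were higher and 28.8% lower). In the fertilized series it had 11 risen and 1 fallen (median 2.38, against 0.112 over all genes, of which 28.3% were higher and 25.3% lower). Tjp1, of the same junction, fell at this step in all 3 series. Dsg2, a desmosomal cadherin, was at 0 in all 24 first-series 4-cell controls and had 12.4 ± 9.84 CPM in 20 morulae, at least 277-fold higher against a floor of 3 counts over the group. Dsc2, another desmosomal cadherin, rose to 18.3 ± 14.8 CPM in morulae, against 0.856 ± 2.6 CPM in 4-cell controls (SD, log2 4.48, adjusted p = 1.01e-06).

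Cortex and apical domain genes had 10 risen and 3 fallen of 16 at the first-series morula stage (median 0.97, against -0.04 over all genes, of which 25.8% were higher and 29% lower). It was 11 risen and 3 fallen in the second series (median 0.75, against 0.001, with 26.9% and 28.8% of all genes) and 11 risen and 2 fallen in the fertilized series (median 0.98, against 0.112, with 28.3% and 25.3%). Slc9a3r1, which binds ezrin under the membrane, had 91.3 ± 48.3 CPM in morulae, against 4.51 ± 6.68 CPM in 4-cell controls (SD, log2 4.56, adjusted p = 5.28e-13). Its 4-cell level was in turn below the 2-cell level of 54.4 ± 44.6 CPM (log2 -3.50, adjusted p = 5.68e-10). Actg1, cytoplasmic gamma-actin, rose by 4.29 (SE 0.32) in morulae to 4150 ± 1770 CPM, against 241 ± 139 CPM at the 4-cell stage, while Fscn1, an actin bundler, fell by 1.495 (SE 0.29, adjusted p = 2.63e-06). Tead4, a transcription factor of the outer cell lineage, and Actb, beta-actin, rose at the 4-cell stage by 3.70 (SE 0.25) and 2.19 (SE 0.18). Rock1, a kinase that drives actomyosin contraction, fell at both steps (log2 -2.08, SE 0.26, and -1.296, SE 0.28).

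Polarity partners in the first series had 3 risen and 6 fallen of 15 at the 4-cell stage, where 34.3% of all genes were higher and 35.5% lower, and 2 risen and 5 fallen at the morula stage, where 25.8% were higher and 29% lower. The median was 0.02 at the 4-cell stage and -0.12 at the morula stage with TMM, and -0.48 and 0.08 with RLE. Over all genes it was -0.06 and -0.04 with TMM, and -0.48 and 0.16 with RLE. Second-series medians of the list were 0.03 and -0.29 with TMM, against -0.14 and 0.001 over all genes. The fertilized morula median was 0.41, against 0.112. In the first series Cdc42, the GTPase that binds Pard6b, rose in morulae by 1.33 (SE 0.15) to 523 ± 86.4 CPM, against 233 ± 76.5 CPM at the 4-cell stage. Stk11, a polarity kinase, and Prickle1, of planar polarity, fell in morulae (log2 -1.79, SE 0.21, and -3.09, SE 0.34). Among the paralogs of Pard6b, Pard6g fell at the 4-cell stage (log2 -4.11, SE 0.77) and Pard6a rose by 1.74 (SE 0.46). Mpp5, which encodes the Crumbs complex scaffold Pals1, fell by 2.59 (SE 0.32), and Mark3, a polarity kinase, rose by 2.45 (SE 0.36).

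Adherens junction partners had 2 risen and 6 fallen of 14 at the first-series 4-cell stage and 3 risen and 4 fallen at the morula stage, beside the same shares of all genes. Both first-series medians, -0.10 and -0.04, were close to those over all genes, -0.06 and -0.04, and the morula median was 0.13 with RLE, against 0.16 over all genes. Second-series medians of this list were -0.47 and 0.04 at these steps, against -0.14 and 0.001 over all genes. The fertilized morula median was 0.51, or 0.39 with a floor of 3 counts for genes at 0 in a group, against 0.112 over all genes. Cdh2 and Cdh3, the N- and P-cadherins, fell at the first-series 4-cell stage (log2 -3.93, SE 0.77, and -3.14, SE 0.66). Cdh1 was called higher at that step with TMM, but not with RLE (0.55, adjusted p = 0.145) or DESeq2 (0.55, adjusted p = 0.13). Itgb1, an integrin, and Ctnnd1, p120-catenin, rose at that step by 1.86 (SE 0.32) and 0.72 (SE 0.20). RLE moved the median of all genes by -0.43 at this step, so a rise of the size of Ctnnd1's may depend on scaling. The count of risen genes in this list shifted at 2 of the 5 stage steps with RLE, and at 2 with DESeq2. At the morula stage Epcam, an epithelial adhesion molecule, rose by 2.31 (SE 0.20) to 827 ± 325 CPM, against 191 ± 104 CPM in 4-cell embryos. Pvrl2, which encodes nectin-2, rose by 1.89 (SE 0.36), and Ctnnbip1, an inhibitor of beta-catenin, fell by 1.29 (SE 0.20). The tight junction list at the first-series 4-cell stage had 3 risen and 4 fallen of 13, where 34.3% of all genes were higher and 35.5% lower. Its median was -0.48, against -0.06 over all genes, and with RLE it was -0.92, against -0.48. Among its genes, Cldn7 and Cldn4, claudins, rose by 4.16 (SE 0.37) and 3.66 (SE 0.52), and Tjp3 and Dsc2 fell (log2 -3.19, SE 0.64, and -3.81, SE 0.78).

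Pard6b and Ezr were the members that passed the test both for a fall at the 4-cell stage in at least 1 parthenote series and for a rise at the morula stage in all 3 series. For Ezr the called fall is that of the second series, where the 2-cell median was only 0.178 CPM. The RefSeq sequences of both genes before the start of transcription are shown because of these calls. Each is 250 bases long, 5′ to 3′ on the gene's strand, and capitals mark matches to the TFAP2 motif GCCNNNGGC and to the E-box CACCTG on either strand.
Pard6b (chr2:168080754-168081003, plus strand): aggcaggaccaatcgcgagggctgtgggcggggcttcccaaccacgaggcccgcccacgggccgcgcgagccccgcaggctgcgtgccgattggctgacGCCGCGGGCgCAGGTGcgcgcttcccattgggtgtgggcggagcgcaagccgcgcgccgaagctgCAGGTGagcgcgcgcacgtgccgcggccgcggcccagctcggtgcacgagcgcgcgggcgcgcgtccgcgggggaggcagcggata
Ezr (chr17:6782781-6783030, minus strand): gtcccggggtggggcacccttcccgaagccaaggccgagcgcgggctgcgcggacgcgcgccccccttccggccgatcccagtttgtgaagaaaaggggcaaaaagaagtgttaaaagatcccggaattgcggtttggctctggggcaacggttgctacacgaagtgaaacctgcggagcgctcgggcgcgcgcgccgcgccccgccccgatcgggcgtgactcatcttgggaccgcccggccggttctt
Counted over 300 bases that also take in the first 50 of the transcript, Pard6b held 1 TFAP2 match and 2 E-box matches, which do not overlap, and Ezr held neither. Neither window held the TEAD motif GGAATG. Of 32851 RefSeq promoters of that length, 16.6% held the TFAP2 motif, 20.2% the E-box and 14.7% the TEAD motif, so such matches are common and are given as a description only.

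Injection of either microRNA moved none of the 10 genes past the threshold. Over 15 comparisons of an injected group with its own control group there were 145 member tests, of which 0 were called by edgeR and 0 by DESeq2. The other 5 tests could not be made, since Ezr in 4 comparisons and Myo10 in 1 did not pass the filter on low counts. At an unadjusted p under 0.05 there were 8 of 145 (5.52%), 6 higher and 2 lower, while 0.97% to 16.58% of all genes reached it in the 15 comparisons. Few genes of the whole table were called: 0% of the 8940 to 11202 genes tested in 13 comparisons, and 0.0188%, or 2 genes, with the mid and with the high dose of miR-200c in 4-cell parthenotes. Doses of one stage and series share their controls.

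The member with the smallest p was Ezr in morulae of the first series. Its lowest, median and highest levels were 70.9, 198 and 347 CPM in 19 high-dose embryos and 88.4, 173 and 273 CPM in 19 mid-dose embryos, against 32.3, 128 and 243 CPM in 20 controls. The groups overlapped, with 4 of 19 high-dose embryos above every control. The log2 differences were 0.75 (SE 0.20, adjusted p = 0.327) for the high dose and 0.54 (SE 0.20, adjusted p = 0.95) for the mid dose, and without the filter on low counts the high-dose value was 0.77 (adjusted p = 0.0313). In the low-dose group Ezr had 28.7, 148 and 223 CPM. In fertilized morulae the median was lower in the miR-200c group than in controls, at 58.1 and 76.3 CPM.

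Pard6b, the 1 member with seed matches for both microRNAs, was called lower in no injected group. In miR-200c parthenote morulae its medians were 27.7 CPM at the low, 27.9 CPM at the mid and 38.9 CPM at the high dose, against 34.4 CPM in controls, and its means were 35.4, 34.7 and 40.5 CPM, against 31.2 CPM in controls, so that median and mean differ in direction at the low and mid doses. In the miR-465c series it had 12.7, 41.8 and 84.4 CPM in 28 high-dose morulae and 11.2, 35.4 and 67.3 CPM in 29 low-dose morulae, against 2.79, 28.4 and 49.0 CPM in 22 controls. The differences were 0.62 (SE 0.20, adjusted p = 0.209) for the high dose and 0.59 (SE 0.20, adjusted p = 0.897) for the low dose, both positive. In fertilized morulae with miR-200c it had 6.08, 45.7 and 111 CPM, against 20.8, 50.7 and 139 CPM in controls. Over its 15 tests the log2 difference of Pard6b ran from -0.53 to 0.62, with 9 above 0.

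Of the other values with an unadjusted p under 0.05, Pard3 had 1.65, 18.4 and 63.0 CPM in fertilized morulae with miR-200c, against 6.28, 30.5 and 108 CPM in controls (log2 -0.64, SE 0.25, adjusted p = 1). Cdh1 in second-series 4-cell embryos of the low dose had 0, 38.3 and 150.2 CPM, against 0, 78.8 and 214 CPM in controls (log2 -1.13, SE 0.48, adjusted p = 1). Prkci stood 0.54 (SE 0.22, adjusted p = 0.95) above controls in mid-dose miR-200c morulae and 0.51 (SE 0.21, adjusted p = 0.371) in high-dose miR-465c morulae. For each of these the injected and control embryos overlapped over most of their range.

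Among the remaining members, log2 differences over all doses ran from -0.24 to 0.21 for Ctnna1, from -0.29 to 0.40 for Ctnnb1, from -0.50 to 0.31 for Prkcz and from -0.42 to 0.32 for Tjp1. The outermost 95% bounds over all comparisons lay at -0.61 and 0.56 for Ctnna1, so that a doubling of this gene lies outside every interval, but at -3.35 and 1.44 for Ezr and -1.64 and 2.27 for Myo10. A missed threshold does not show that a level was unaltered. In the mid-dose 4-cell group of the first series 1 embryo had 551 CPM of Pard3 and 207 CPM of Prkci, the embryo that stood far from its stage. With and without the embryos closer to another stage, the group's differences were 0.63 and 0.24 for Pard3 and 0.51 and -0.10 for Prkci. Of the partner lists, 0 of 790 tests of a listed gene in the 15 comparisons were called.

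For the 4 genes given here, ranges of group means overlapped between injected and control embryos. These ranges pool series whose controls differ, so their overlap does not test injection. The ranges of Ctnnb1 at the 2-cell stage did not overlap, at 157.7 to 199.7 CPM over 3 injected groups and 120.4 to 156.9 CPM over 2 control groups. At the morula stage Cdh1 averaged 165.9 to 365 CPM over 6 injected groups and 190.4 to 328 CPM over 3 control groups, and Ctnna1 averaged 343 to 414 CPM and 318 to 379 CPM. Ezr averaged 64.6 to 205 CPM in injected and 79.1 to 124 CPM in control morulae. At the 2-cell stage Pard3 averaged 677 to 1125 CPM over 3 injected groups and 643 to 973 CPM over 2 control groups, and at the 4-cell stage 15.1 to 67.2 CPM over 6 injected and 19.4 to 45.2 CPM over 3 control groups.

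**Figure D4:**
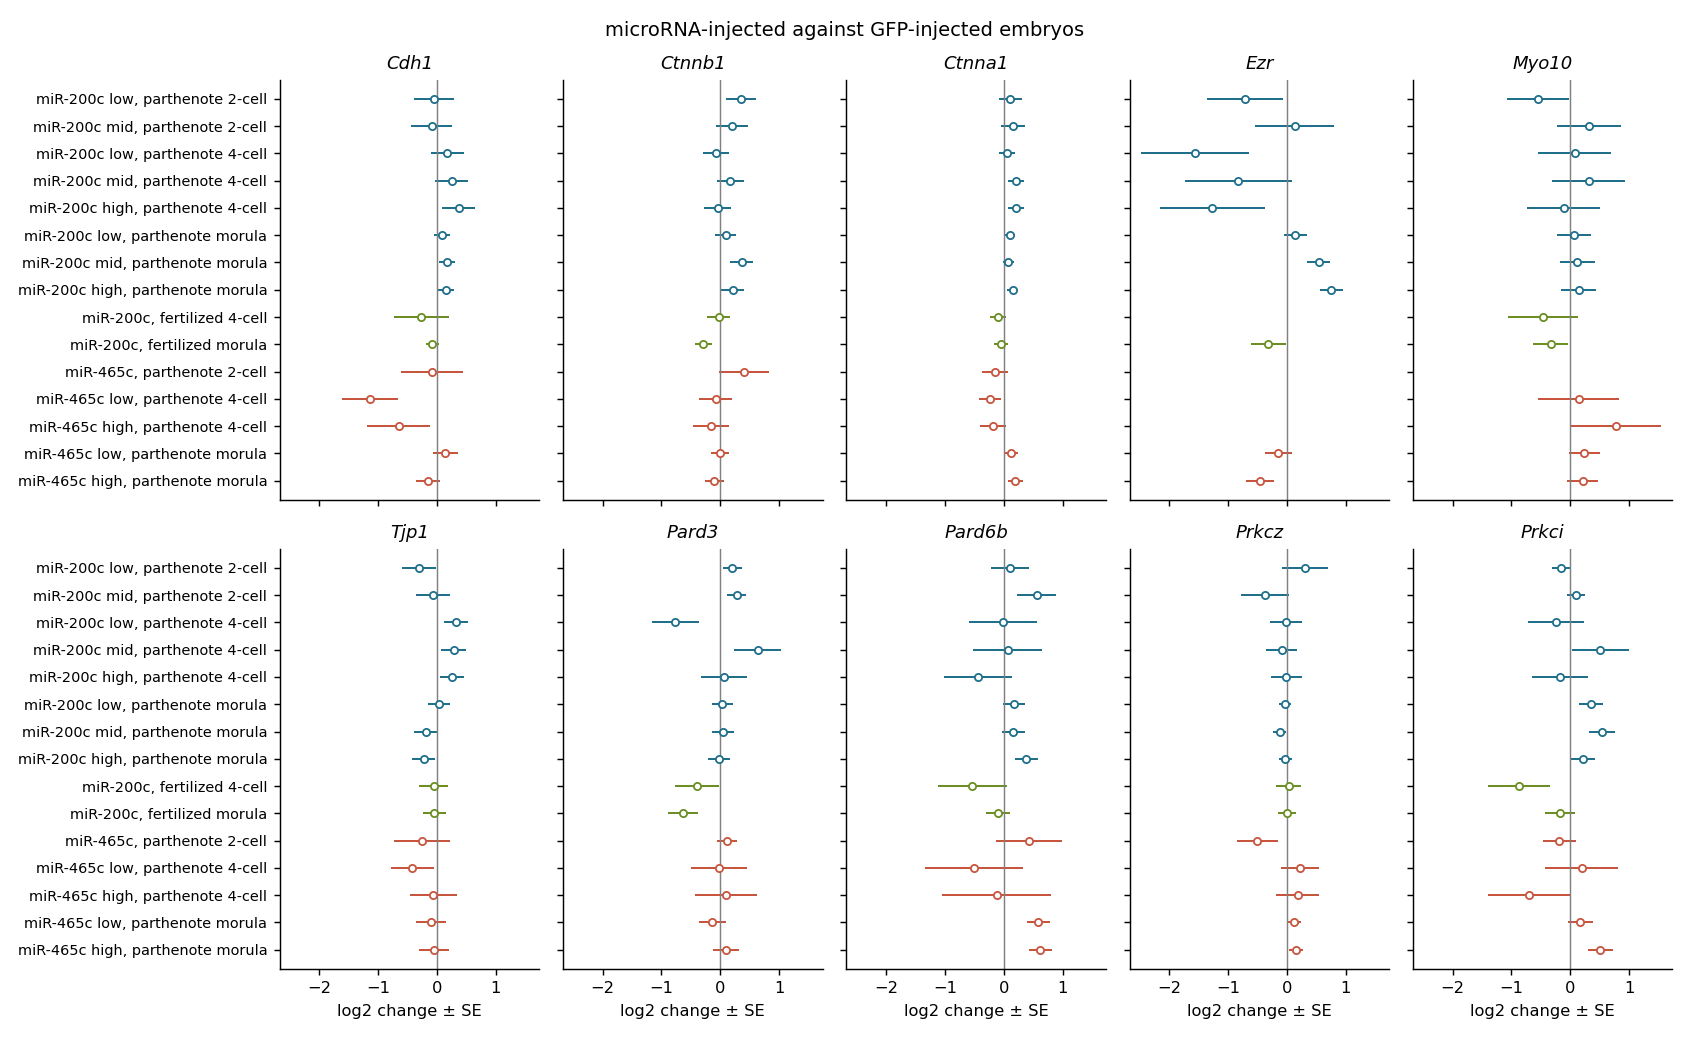
Log2 difference of each of the 10 genes between each injected group and its own control group, with bars of 1 SE on each side, by microRNA, dose, embryo type and stage (a missing point is a test that could not be made). Values lie on both sides of 0, none passed the test, and those of Ctnna1 stay between -0.24 and 0.21.

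Editing by an AGO2 fusion was read at the 2-cell stage in 93 other parthenotes. In this assay, Ago-REMORA, an RNA editor is joined to AGO2, the effector protein of microRNAs, and leaves edits on transcripts that it meets. There were 27 embryos with the AGO2 editor and miR-200c, 28 with it and miR-465c, 23 with it alone and 15 with the editor lacking AGO2. Values are in the authors' unit EPKM, which the files do not define. Depth is unknown, and a transcript's own level is not separated from its editing. Of the 10 genes 7 were listed, all but Prkcz, Ezr and Tjp1, and 71.1% of the values in the 3′ UTR table were 0.

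Compared with the editor lacking AGO2, the AGO2 editor gave more 3′ UTR editing on 2 of 6 members tested, where 9.94% of 2778 genes were called (limma on log2(EPKM + 1)). Of the genes called, 275 were higher and 1 lower, and the median difference over all genes was 0.17. More editing with AGO2 was therefore general and not particular to the members. Pard6b was above 0 in 19 of 23 embryos with AGO2, with a median of 0.848 and a highest value of 9.97 EPKM, against 5 of 15 with the editor alone, with a median of 0 and a highest value of 0.599 EPKM. The difference was 0.89 (SE 0.26, adjusted p = 0.014). Pard3 was above 0 in 22 of 23 and 13 of 15 embryos, with medians of 1.82 and 0.969 EPKM, and differed by 0.58 (SE 0.17, adjusted p = 0.0173). Ctnna1 was above 0 in 16 of 23 and 3 of 15 embryos (0.92, SE 0.33, adjusted p = 0.0593, and 0.0271 with a pseudocount of 0.1). Prkci differed by 0.50 (adjusted p = 0.0655), Ctnnb1 by 0.45 (adjusted p = 0.11) and Cdh1 by 0.24 (adjusted p = 0.491). In the coding sequence, where 4.61% of 3233 genes were called, Pard3 had medians of 3.11 EPKM with AGO2 and 0.946 EPKM without (0.89, SE 0.16, adjusted p = 5.02e-05), and the other 5 members tested were not called. Of the genes called there, 147 were higher and 2 lower, and the median difference over all genes was 0.10. In introns 4 members were tested and 0 called, where 0.0876% of 2284 genes were, and 0 of the 4 had an unadjusted p under 0.05.

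Adding a microRNA to the AGO2 editor gave no called gene in any region, 0% of the genes tested (limma). At an unadjusted p under 0.05 there were 160 of 2778 genes with miR-200c and 190 with miR-465c in 3′ UTRs, 208 and 211 of 3233 in coding sequences, and 109 and 91 of 2284 in introns. With a pseudocount of 0.1 in place of 1, 1 gene was called in 3′ UTRs with miR-465c, and it was not a member. Pard6b 3′ UTR editing was above 0 in 22 of 27 embryos with miR-200c and 20 of 28 with miR-465c, against 19 of 23 with the AGO2 editor alone. Medians were 1.33 and 0.718 EPKM with the microRNAs and 0.848 EPKM without. The differences were 0.09 (95% interval -0.35 to 0.52, adjusted p = 0.97) and -0.20 (95% interval -0.64 to 0.23, adjusted p = 0.91). At an unadjusted p under 0.05, 1 of 6 members passed in 3′ UTRs for each microRNA, both lower: Prkci with miR-200c, by -0.36 (adjusted p = 0.72), and Ctnnb1 with miR-465c, by -0.42 (adjusted p = 0.597). In coding sequences 0 of 6 did. In introns 1 of 4 did for each, both with small differences: Prkci was lower with miR-200c, by -0.08 (adjusted p = 0.943), and Pard3 higher with miR-465c, by 0.015 (adjusted p = 0.978). All 3 contrasts use the 23 embryos with the AGO2 editor alone. Pard3, the member most abundant at this stage, was edited in all 27 and all 28 embryos with a microRNA, with medians of 1.39 and 2.10 EPKM.

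**Figure D5:**
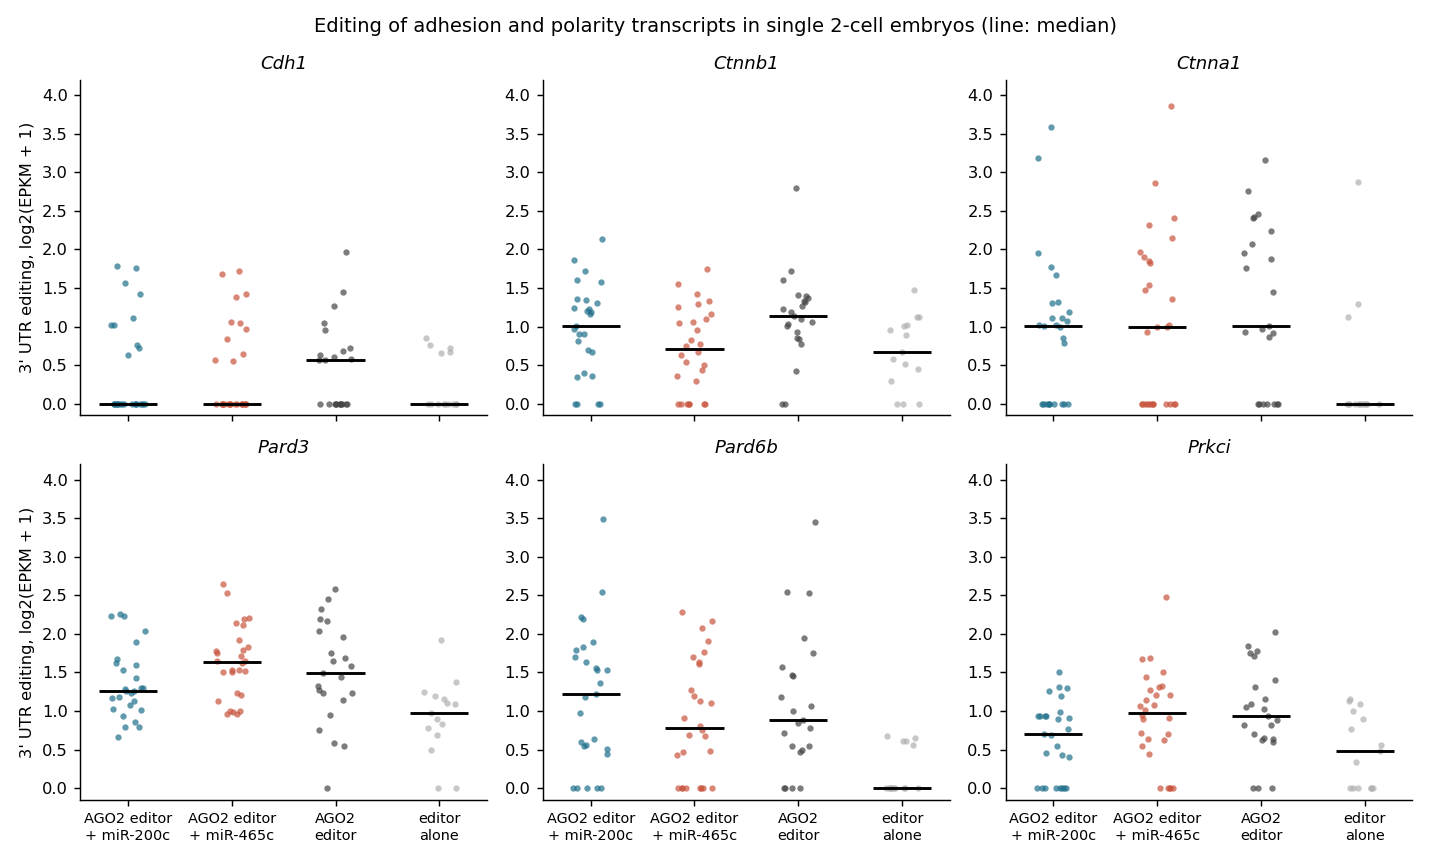
3′ UTR editing (log2(EPKM + 1)) of the 6 members tested in single 2-cell parthenotes, by assay group, with 1 point per embryo and a bar at the median. Pard6b and Pard3 lie higher with the AGO2 editor than with the editor lacking AGO2, and embryos with and without an added microRNA overlap.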

How the data were processed

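RSEM gave the authors' expected counts per gene on mm10, per the labels' protocols, and these were deposited without normalization. R 4.5.1, STAR, featureCounts, FastQC, cutadapt and DESeq2 1.48.2 are named in the submitters' processing notes without a role. Editing is a signal that the authors name EPKM, per the file headers, with no definition, and 3 columns of each such table fit no sample's label and were left out.

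Titles gave the groups and replicate numbers. Counts were rounded and tested with edgeR 4.0.16 in R 4.3.3: TMM scaling, the edgeR filter on low counts by group, a quasi-likelihood fit and Benjamini-Hochberg adjustment over all genes tested. The 183 controls of 8 groups were fitted together for stage steps and for differences between series, and each count table was fitted alone for doses. EPKM was tested with limma 3.58.1 on log2(EPKM + 1), over rows above 0 in at least 20% of embryos. Alternatives were RLE size factors, no filter, the replicate number as a block, embryos with at least 1500000 counts, DESeq2 1.42.0, each control series alone, CPM on TMM library sizes and a pseudocount of 0.1. Refits without embryos that lay closer to another stage, or without 1 embryo, were chosen after seeing the data. The edgeR scripts were tested on simulated data. Intervals are 95% and use the fitted SE. Seed matches, promoters and transcript lengths came from RefSeq on GRCm38.p6. Promoters of Cdh1 and Ctnna1 were not used here. Pard3, Prkcz, Tjp1 and Ctnnb1 have several listed transcripts, whose mean length was used.

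The members, gene lists and tests were chosen with earlier results of these data known. Genes named were all 10 members and, per list and step of the first series, up to 2 called genes with the highest and 2 with the lowest change and a mean of at least 10 CPM where higher.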

Additional observations from a re-analysis of the deposited data

Results flagged for a closer look

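The change of Pard3 between the 4-cell and morula stages was 0.91 in fertilized controls, a called rise, and -0.52 in first-series parthenote controls, which did not pass the test (adjusted p = 0.123, edgeR). The difference of the changes was 1.43 on the log2 scale (SE 0.42, edgeR adjusted p = 0.0317, tested as an interaction). It is the 1 value of the 10 genes that differed between series by such a test. The 4-cell medians were 18.99 CPM in fertilized embryos and 29.9 CPM in parthenotes, and the morula medians were 30.5 and 25.9 CPM. The value and its call rest in part on 1 first-series 4-cell control, replicate 24, with 208 CPM of Pard3, without which the difference was 1.24 (adjusted p = 0.0782). With the replicate number as a block it was 1.102 (adjusted p = 0.221). Embryo type and experiment cannot be told apart here.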

How the results depend on the processing

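No member that passed the test changed direction under any alternative, and no mean CPM moved by 1 SD with TMM library sizes. With RLE size factors, 1 member rose and 5 fell at the first-series 4-cell step (3 and 3 with TMM), 0 rose at the second-series 4-cell step (3 with TMM), 1 fell at the second-series morula step (2 with TMM), and 1 differed between the parthenote series at the 4-cell step (Ctnnb1, 1.02, adjusted p = 0.0316; 0 with TMM). DESeq2 gave 5 falls at the first-series 4-cell step, 1 rise at the second-series 4-cell step and 1 fall at the second-series morula step. With each series fitted alone these last were 1 and 1, with 3 rises in place of 5 at the second-series morula step (Cdh1 and Ctnnb1 lost). That step also had 1 fall without the filter, with the replicate block and with embryos of at least 1500000 counts, the call of Pard3 being the one lost. The Pard3 difference between fertilized and first-series embryos left 0 calls in place of 1 with the replicate block and without the embryos closer to another stage, an alternative chosen after seeing the data, which gave 1 call in place of 0 between the parthenote series at the 4-cell step. Deeper embryos gave 1 in place of 0 at the morula step (Prkcz, -1.18, adjusted p = 0.0373). No filter gave 1 dose call in place of 0 (Ezr, high-dose morulae). The cause was not tested. Of 1420 member values under an alternative, 58 had another sign, 47 of them for doses, and 0 of the 58 were called in either fit. Among values given above, these were Tjp1 at the first-series 4-cell step (-0.23 with RLE, -0.23 with DESeq2), Ctnnb1 at the second-series 4-cell step (-0.006, deeper embryos), Myo10 at the second-series morula step (-0.056 with RLE, -0.017 with DESeq2, -0.007 alone), Cdh1 between the parthenote series at the 4-cell step (-0.12, deeper embryos, and -0.023 without the doubted ones), Prkcz in low-dose 2-cell embryos (-0.30 with the block) and Prkci in mid-dose 4-cell embryos (-0.038 with the block, -0.10 without the doubted ones). Genes called between series numbered 394, 1900 and 487, against 1000, 3036 and 1220 without the filter and 102, 1090 and 217 with the block. For doses, no filter called 189 to 1601 genes where 0 or 2 were called with it, and mid-dose 2-cell embryos had 519 with the block, 290 with DESeq2 and 3 at higher depth; high-dose miR-465c morulae had 26 with DESeq2. Same-numbered embryos of a table correlated by 0.015 to 0.109 on average, with 5.3% to 54.5% of pairs over 0.1. Different-numbered embryos correlated by -0.002 to 0.003 on average, less than the same-numbered ones in every table. The gap was widest in fertilized morulae (0.109, against -0.002). What the numbers stand for is not labelled, so they were used only as a block in an alternative, and a weak shared component is not excluded. Depth limits the members with low counts, since 3 counts were worth up to 7.42 CPM.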

Other observations

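Which genes varied with the members from embryo to embryo was described with each group's mean removed, over 525 embryos and 8495 genes with a mean of at least 10 CPM. The points share library depth and collections, so the values are descriptive. Ctnnb1 was most like Utp18 (r = 0.585), Smek1 (0.568) and Ctdp1 (0.539). The most like gene was Dennd6a for Pard3 (r = 0.485), Tdrp for Cdh1 (0.45), Ddx39 for Prkcz (0.441), Hspa9 for Ctnna1 (0.403), Gnai1 for Prkci (0.398), Stag2 for Tjp1 (0.398), Tuba1b for Ezr (0.33) and Senp8 for Pard6b (0.296). Myo10 lay under the level minimum. The members themselves were little alike within groups: the highest r between any 2 of them was 0.239, for Cdh1 and Ezr, followed by 0.236 for Cdh1 and Ctnna1.

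The spread between control embryos differed by gene and stage. In the first series the SD of Ctnna1 was 0.224 of its mean at the morula stage and that of Prkcz 0.205, while at the 4-cell stage it was 1.84 for Ezr, 1.29 for Myo10 and 1.00 for Pard3. The 4-cell medians of Ezr and Myo10, 2.79 and 2.6 CPM, lay near what 3 counts were worth there (0.593 to 2.71 CPM). The highest Pard3 value, 208 CPM, was that of replicate 24, which lay closer to the 2-cell median, and the spread without it was not computed. The spread of Cdh1 was 0.621, 0.622 and 0.304 of its mean at the 2-cell, 4-cell and morula stages.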
